A study of Mus musculus with 5 samples.

Results

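Members of the ephrin and Eph receptor family were followed in RNA sequencing of murine lung cancer-associated fibroblasts (CAFs), the activated fibroblasts of tumor tissue. The 10 members were chosen by symbol from the 21835 genes of the expression table, and comprised 2 A ephrins (*Efna1* and *Efna5*), 2 B ephrins (*Efnb1* and *Efnb2*), 3 EphA receptors (*Epha2*, *Epha3* and *Epha4*) and 3 EphB receptors (*Ephb2*, *Ephb3* and *Ephb4*). CAFs that carried the empty vector (CAF-vec, labelled as wild-type control, 2 samples) were compared with CAFs in which the miR-200b, miR-200a and miR-429 cluster had been introduced by lentivirus (CAF-200, 3 samples), to learn which genes miR-200 overexpression alters in CAFs. Both groups are labelled as lung CAFs, without a donor animal or clone being named, and were selected for the vector with G418 according to the labels (the methods name a hygromycin vector). Nothing in the labels says that the samples came from separate cultures, so the *p* values measure the spread between these samples, which may be technical.

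Ephrins are cell surface ligands and Ephs are their receptor tyrosine kinases, so the pair signals where cells touch. A ephrins are held in the membrane by a lipid anchor and mostly bind EphA receptors, whereas B ephrins span the membrane, mostly bind EphB receptors and can themselves signal back into the cell that carries them. The family is known for repulsion and sorting of cells, for vessel formation, where ephrin-B2 marks arteries and EphB4 veins, and for the contact between fibroblasts and tumor cells.

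The microRNAs of the introduced cluster are shown because their seed, the stretch of bases 2 to 8 that pairs with target mRNAs, defines the matches searched for in the members. The mature sequences are from RefSeq (GRCm38.p6, chromosome 4, minus strand), with the seed in capitals.
miR-200b-3p: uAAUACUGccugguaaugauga
miR-429-3p: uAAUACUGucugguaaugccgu
miR-200a-3p: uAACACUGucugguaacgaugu
miR-200b and miR-429 share a seed, whose complement in an mRNA is CAGTATT, and the seed of miR-200a has the complement CAGTGTT.

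A heptamer complementary to one of these seeds was present in the longest annotated 3′-UTR of 5 of the 10 members (GENCODE M21, GRCm38, sense strand of each mRNA). Among the 9 members expressed highly enough to be tested, 4 had a match, against 30.3% of the 12055 tested genes with an annotated 3′-UTR. Matches to the miR-200b and miR-429 seed alone were found in 15.7% and to the miR-200a seed in 20.8% of those genes. The 3′-UTRs of the tested members ran from 759 to 7783 bases, around a median of 1174 bases for all tested genes, and a longer 3′-UTR has more positions where a match can fall. The sites of *Efna1*, *Efnb2* and *Epha2* are shown because these members fell, rose and did not pass the test, respectively. The heptamer is in capitals.
*Efna1*, miR-200b and miR-429, chr3:89272372-89272393, minus strand: agcctcaaaaggttCAGTATTa
*Efna1*, miR-200a, chr3:89271769-89271790, minus strand: agggtttttttataCAGTGTTt
*Efnb2*, miR-200b and miR-429, chr8:8617621-8617642, minus strand: atttgtaagtaacaCAGTATTa
*Epha2*, miR-200a, chr4:141329235-141329256, plus strand: acaaatgtcgctgtCAGTGTTa
*Efna1* was the only member with a match to both seeds, at positions 113 and 716 of a 3′-UTR of 759 bases. The match in *Efnb2* lies at position 2960 of 3154 bases and that in *Epha2* at position 731 of 866. *Ephb2* has 3 matches to the miR-200a seed, at positions 2633, 4757 and 5323 of 7783 bases, and *Epha3* has 1 match to the miR-200b and miR-429 seed. *Efna5*, *Efnb1*, *Epha4*, *Ephb3* and *Ephb4* have no match. These matches are descriptions of sequence, and whether any of them is bound was not tested.

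**Figure D1:**
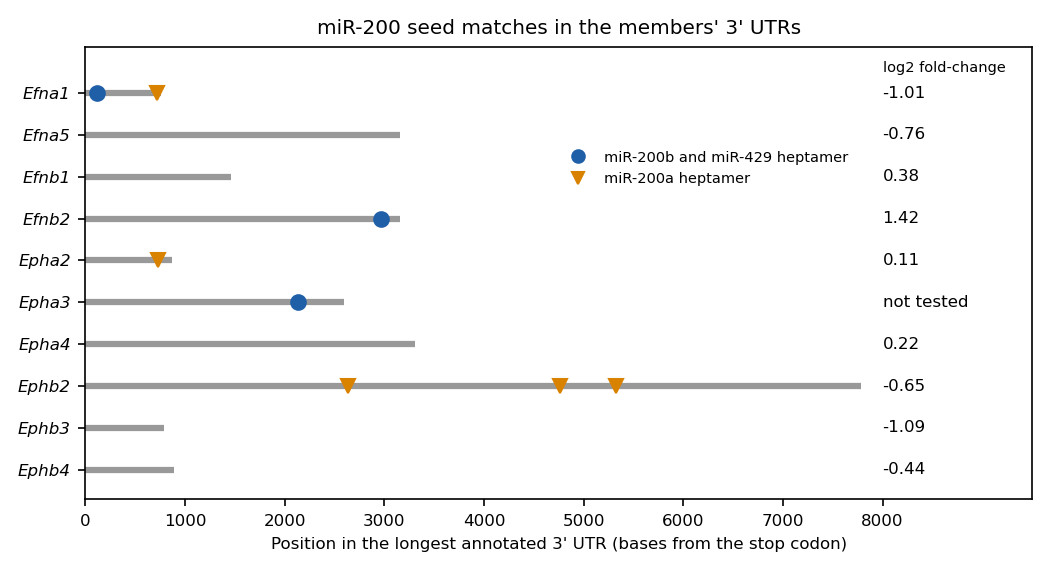
Longest annotated 3′-UTR of each member drawn to scale in bases from the stop codon (horizontal axis), with matches to the miR-200b and miR-429 seed (circles) and to the miR-200a seed (triangles), and the log2 fold-change of CAF-200 against CAF-vec at the right. *Efna1*, at -1.01, has 2 matches and *Ephb2*, at -0.65, has 3, while *Ephb3*, at -1.09, has none and *Efnb2*, at 1.42, has 1.

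The expression values are in CPM, scaled by the authors to the same total in each sample, and fold-changes were computed as log2(CPM + 0.5) in CAF-200 minus that in CAF-vec, a scale that understates the change of genes with low values. The test was limma, adjusted by Benjamini-Hochberg over 12175 genes that reached 0.5 CPM in 2 or more samples, and a gene was taken to rise or fall at an adjusted *p* under 0.05. The number of reads per sample is unknown. The same 6127 genes were at 0 in all 3 CAF-200 samples, against 7898 and 7413 genes in the CAF-vec samples, so the values may have been adjusted beyond scaling, and a value listed at 0 or a narrow spread within CAF-200 is to be read with that limit. The spread was wider within CAF-vec, whose samples had a log2 difference with an SD over genes of 0.49, than within CAF-200, where it was 0.192 to 0.204, so what a single CAF-vec sample decides among the members is given with them. *Zeb1* and *Zeb2*, textbook targets of miR-200, were examined as a check of the labels. *Zeb1* was 43.5 and 50.75 CPM in CAF-vec and 37.8, 37.5 and 34.1 CPM in CAF-200, lower in every CAF-200 sample, at a log2 fold-change of -0.36 that narrowly missed the threshold (limma, adjusted *p* = 0.0504). *Zeb2* had a log2 fold-change of -0.23 (limma, adjusted *p* = 0.374) and its groups overlapped. That value rested on 1 sample, since it was 0.083 without CAF-vec 1 (adjusted *p* = 0.375) and -0.54 without CAF-vec 2 (adjusted *p* = 0.000473), whereas *Zeb1* was -0.47 (adjusted *p* = 0.00371) and -0.25 (adjusted *p* = 0.0326) in the same fits, which lend the single CAF-vec sample the spread of the CAF-200 samples.

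Of the 10 members, 9 were tested. In CAF-200, 4 of them fell (*Efna1*, *Efna5*, *Ephb2* and *Ephb3*), 2 rose (*Efnb1* and *Efnb2*) and 3 did not pass the test (*Epha2*, *Epha4* and *Ephb4*). Of all genes tested, 18.6% fell (2265 genes), 11.9% rose (1446 genes) and 30.5% did either, a split that became 1756 lower and 1872 higher after each sample was centred on its median. When CAF-200 1, 2 or 3 was left out, 3, 2 and 1 members fell, beside 699, 574 and 482 of all genes. In each of these fits 1 member rose, beside 528, 498 and 434 of all genes. The thresholds of the study's volcano plot, an adjusted *p* under 0.01 with a log2 fold-change beyond 1, were passed by *Ephb3* downward and by *Efnb2* upward, where 2.35% of all genes passed downward, 2.37% upward and 4.72% in either direction. No member passed them when any 1 CAF-200 sample was left out (0 lower and 0 higher), although 4 were lower and 2 higher each time at an unadjusted *p* under 0.05 (limma), and *Ephb3* did not pass them without CAF-vec 1 (log2 fold-change -0.87). For 5 members every CAF-200 sample was below both CAF-vec samples and for 2 every one was above, whereas 37.3% of all genes lay below, 24.3% above and 61.6% on one side or the other. The median log2 fold-change was -0.44 over the 9 members and -0.094 over all genes tested. The first of these is the value of *Ephb4*, which rested on CAF-vec 1, and without that sample the medians were -0.11 and -0.064.

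**Figure D2:**
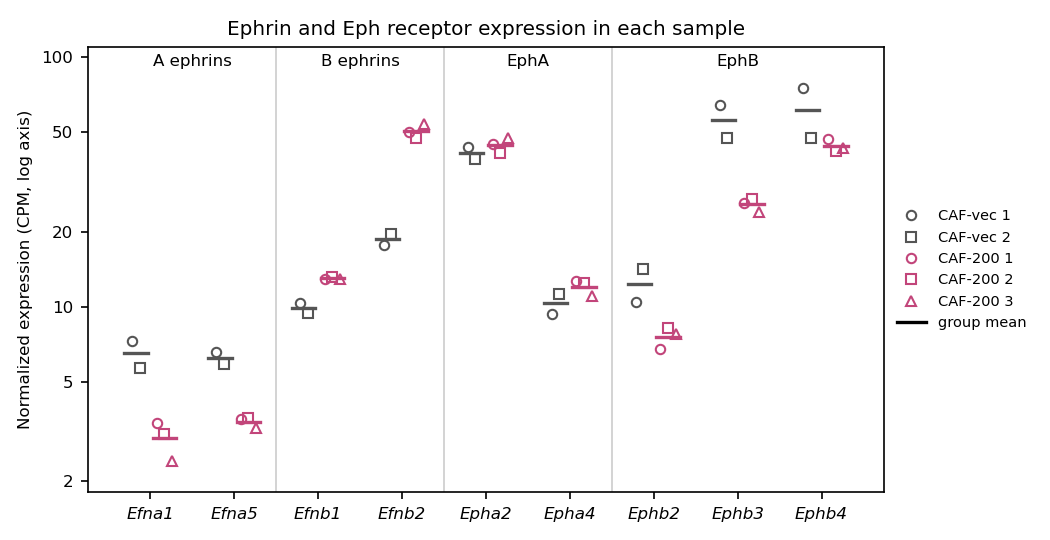
CPM (vertical, log axis) of the 9 tested members in each of the 5 samples, with the symbol shape giving the replicate number and the bars the group means. The CAF-200 samples lie below both CAF-vec samples for *Efna1*, *Efna5*, *Ephb2*, *Ephb3* and *Ephb4*, and above both for *Efnb1* and *Efnb2*. For *Epha2* and *Epha4* 1 CAF-200 sample lies between the CAF-vec samples and the other two lie above both.

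Both A ephrins among the members fell in CAF-200, as did 18.6% of all genes tested. *Efna1* (ENSMUSG00000027954, chromosome 3 of GRCm38, 89271733 to 89281142, minus strand) encodes ephrin-A1, the preferred ligand of EphA2. It was 7.29 and 5.69 CPM in CAF-vec and 3.43, 3.09 and 2.41 CPM in CAF-200. The groups did not overlap, and the CAF-vec mean was 6.49 ± 1.13 CPM (SD, n = 2) and the CAF-200 mean 2.98 ± 0.518 CPM (SD, n = 3), or 2.18-fold lower, with a log2 fold-change of -1.01 (standard error, SE, 0.181, limma, adjusted *p* = 0.0129). The call was lost when CAF-200 2 was left out (log2 fold-change -1.04, adjusted *p* = 0.0569) or CAF-200 3 (-0.89, adjusted *p* = 0.0542), and when no filter on low values was set (adjusted *p* = 0.0723, limma). *Efna5* (ENSMUSG00000048915, chromosome 17, 62604184 to 62881317, minus strand) encodes ephrin-A5, a guidance cue for growing axons. It was 6.58 and 5.89 CPM in CAF-vec and 3.56, 3.57 and 3.26 CPM in CAF-200. All 3 CAF-200 samples were thus close together and below CAF-vec, with a mean of 3.46 ± 0.179 CPM (SD, n = 3) against 6.23 ± 0.490 CPM (SD, n = 2) and a log2 fold-change of -0.76 (SE 0.114, limma, adjusted *p* = 0.00835). Without CAF-200 3 its log2 fold-change was -0.73 (limma, adjusted *p* = 0.0524).

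Both B ephrins among the members rose in CAF-200, as did 11.9% of all genes tested. *Efnb2* (ENSMUSG00000001300, chromosome 8, 8617434 to 8661242, minus strand) encodes ephrin-B2, the arterial ligand of EphB4, and changed most among the members. It was 17.7 and 19.5 CPM in CAF-vec and 50.2, 47.5 and 54.0 CPM in CAF-200. Every CAF-200 sample was far above both CAF-vec samples, and the CAF-vec mean was 18.6 ± 1.27 CPM (SD, n = 2) and the CAF-200 mean 50.6 ± 3.26 CPM (SD, n = 3), or 2.71-fold higher, with a log2 fold-change of 1.42 (SE 0.0990, limma, adjusted *p* = 0.00194). With each sample left out in turn it stayed between 1.35 and 1.48 and passed each time. Its locus holds 3 other annotated genes on the same strand (*E230020D15Rik*, *Gm45073* and *Gm45074*), which share 0 exon bases with *Efnb2*. *Efnb1* (ENSMUSG00000031217, chromosome X, 99136130 to 99148991, plus strand) encodes ephrin-B1, which is needed for skeletal and craniofacial patterning. It was 10.4 and 9.41 CPM in CAF-vec and 12.9, 13.1 and 12.9 CPM in CAF-200. The groups did not overlap, but the rise was small, 1.31-fold, with a log2 fold-change of 0.38 (SE 0.0941, limma, adjusted *p* = 0.0322). The adjusted *p* was 0.126 to 0.136 (limma) when any 1 CAF-200 sample was left out, at log2 fold-changes of 0.37 to 0.38.

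The EphA receptors among the members did not pass the test. *Epha2* (ENSMUSG00000006445, chromosome 4, 141301240 to 141329384, plus strand), the receptor of ephrin-A1 that is often raised in carcinomas, was 43.8 and 39.0 CPM in CAF-vec and 44.7, 41.4 and 47.6 CPM in CAF-200. The groups overlapped, and the 95% confidence interval of its log2 fold-change, -0.15 to 0.36 around 0.11, leaves out changes beyond that range in these samples (limma, adjusted *p* = 0.464). The log2 fold-change was 0.19 without CAF-vec 1 and 0.021 without CAF-vec 2. *Epha4* (ENSMUSG00000026235, chromosome 1, 77367185 to 77515088, minus strand), a receptor that binds ephrins of both classes, was 9.39 and 11.3 CPM in CAF-vec and 12.6, 12.5 and 11.0 CPM in CAF-200. CAF-200 3 lay between the CAF-vec samples, and the log2 fold-change was 0.22 (95% confidence interval -0.089 to 0.52, limma, adjusted *p* = 0.223). Without CAF-vec 2 it was 0.34 and passed (limma, adjusted *p* = 0.0287), in a fit that lends the single CAF-vec sample the spread of the CAF-200 samples, and without CAF-vec 1 it was 0.09. *Epha3* (ENSMUSG00000052504, chromosome 16, 63543534 to 63864175, minus strand), a receptor of mesenchymal and stromal cells, was listed at 0 in all 5 samples and could not be tested.

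Of the 3 EphB receptors, 2 fell in CAF-200, beside 18.6% of all genes tested. *Ephb3* (ENSMUSG00000005958, chromosome 16, 21204755 to 21223305, plus strand), which with EphB2 positions cells along intestinal crypts, was 64.5 and 47.3 CPM in CAF-vec and 26.1, 27.0 and 24.0 CPM in CAF-200. The CAF-vec samples differed from each other, yet both were well above every CAF-200 sample. The CAF-vec mean was 55.9 ± 12.2 CPM (SD, n = 2) and the CAF-200 mean 25.7 ± 1.54 CPM (SD, n = 3), or 2.17-fold lower, with a log2 fold-change of -1.09 (SE 0.150, limma, adjusted *p* = 0.00702), and it passed with each sample left out, at -1.31 to -0.87. After quantile normalization or centring on each sample's median it was -0.98 and -0.99, short of the study's fold threshold. *Ephb2* (ENSMUSG00000028664, chromosome 4, 136647539 to 136835988, minus strand), a receptor of B ephrins that also guides axons, was 10.4 and 14.1 CPM in CAF-vec and 6.75, 8.20 and 7.79 CPM in CAF-200. The groups were apart, with a log2 fold-change of -0.65 (SE 0.162, limma, adjusted *p* = 0.0317), which was -0.86 without CAF-vec 1 and -0.44 without CAF-vec 2. The adjusted *p* was 0.0852 to 0.108 (limma) when any 1 CAF-200 sample was left out, at log2 fold-changes of -0.71 to -0.58. It was 0.0667 after centring (-0.56) and 0.124 with no filter on low values.

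*Ephb4* (ENSMUSG00000029710, chromosome 5, 137350109 to 137378669, plus strand), the venous receptor of ephrin-B2, had values that rested on 1 sample. It was 75.0 CPM in CAF-vec 1 and 47.6 CPM in CAF-vec 2, and 46.9, 42.0 and 43.1 CPM in CAF-200. CAF-vec 2 was thus barely above the highest CAF-200 sample. The log2 fold-change was -0.44 (95% confidence interval -0.92 to 0.047, limma, adjusted *p* = 0.139). It was -0.11 without CAF-vec 1 and -0.76 without CAF-vec 2, so its size depends on which CAF-vec sample is used. A fit with a single CAF-vec sample takes its spread from the CAF-200 samples alone, so no call is read from these. *Ephb4* shares 33 exon bases with *Zan* on the other strand, and whether strand was used in the counting is not given in the sources used here.

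Levels can be set side by side between genes only per length, for which CPM was divided by the length in kb of the longest annotated transcript. In CAF-vec, the members with the highest levels were *Ephb4* (17.3 and 11.0 CPM per kb), *Ephb3* (13.6 and 9.95 CPM per kb) and *Epha2* (11.2 and 9.95 CPM per kb), whose ranges overlapped. The ligands were lower, at 4.47 and 3.49 CPM per kb for *Efna1*, 3.70 and 4.07 CPM per kb for *Efnb2* and 3.19 and 2.89 CPM per kb for *Efnb1*. The lowest of the tested members were *Epha4* (1.48 and 1.78 CPM per kb), *Efna5* (1.63 and 1.46 CPM per kb) and *Ephb2* (0.958 and 1.30 CPM per kb), of which *Epha4* and *Efna5* overlapped and *Ephb2* lay below both. In CAF-200 the order was different in its upper part. *Epha2* (10.6 to 12.2 CPM per kb), *Efnb2* (9.91 to 11.3 CPM per kb) and *Ephb4* (9.68 to 10.8 CPM per kb) overlapped at the top, and *Ephb3* followed at 5.05 to 5.68 CPM per kb, apart from both its neighbours in the order. *Efnb1* stood at 3.96 to 4.03 CPM per kb, while *Efna1* (1.48 to 2.10 CPM per kb) overlapped *Epha4* (1.74 to 2.00 CPM per kb), and *Efna5* (0.808 to 0.886 CPM per kb) lay above *Ephb2* (0.619 to 0.752 CPM per kb). The order depends on the length, since with exon unions *Efnb2* in CAF-200 (6.93 to 7.88 CPM per kb) lay below *Epha2* (8.85 to 10.2 CPM per kb) and *Ephb4* (9.05 to 10.1 CPM per kb).

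**Figure D3:**
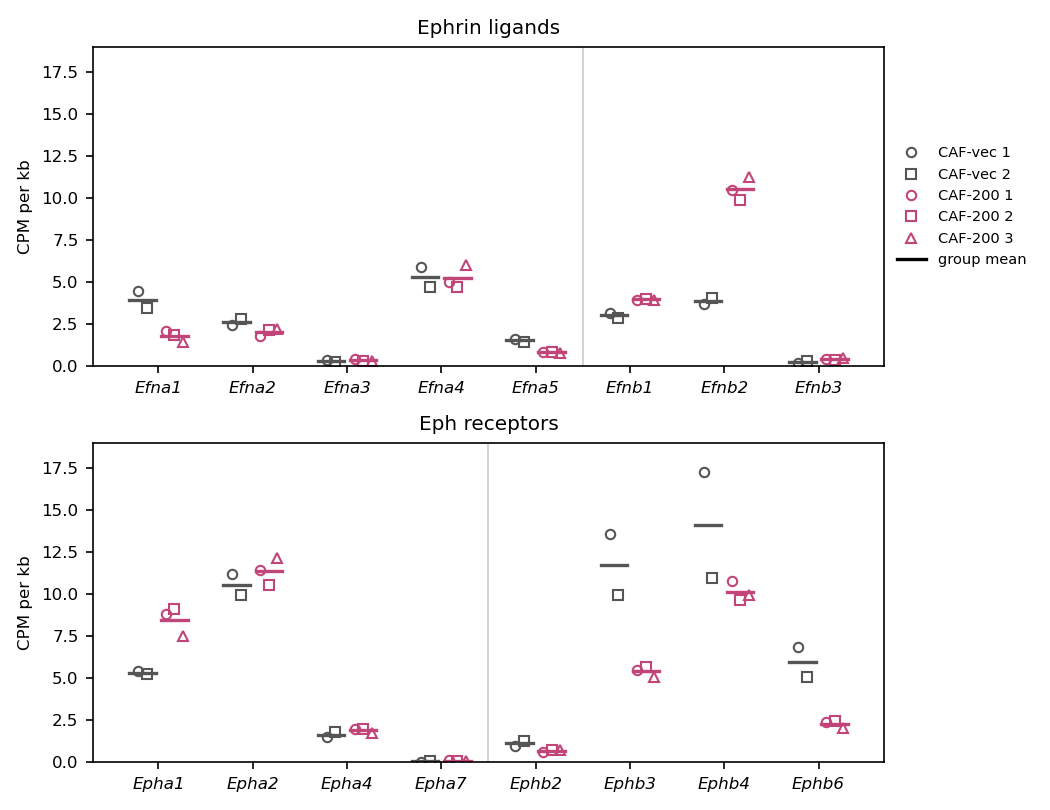
CPM per kb of the longest annotated transcript (vertical) for the tested ephrins (upper plot) and Eph receptors (lower plot) in each sample, with bars at the group means and a line between the A and B classes. *Efnb2* went from the level of the other ephrins in CAF-vec to 10.5 CPM per kb in CAF-200, beside *Epha2* and *Ephb4*.

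The make-up of the family by class was also computed, over all 22 mouse ephrin and Eph genes and per length, as a description without a test. B ephrins made up 32.3% and 36.4% of the summed ephrin level in CAF-vec and 59.2%, 59.0% and 59.1% in CAF-200. The summed A ephrins were 14.9 and 12.8 CPM per kb in CAF-vec and 10.2, 9.98 and 10.9 CPM per kb in CAF-200, and the B ephrins 7.08 and 7.31 against 14.9, 14.3 and 15.7 CPM per kb. Most of the ligand message was therefore of the A class in CAF-vec and of the B class in CAF-200. *Efnb2* alone made up 52.3% and 55.7% of the summed B ephrin level in CAF-vec and 69.1% to 71.7% in CAF-200, so the B class largely followed this gene. Among the receptors, EphB made up 68.0% and 61.5% of the summed level in CAF-vec and 46.4%, 46.0% and 45.2% in CAF-200, the opposite direction. The summed EphB level was 38.7 and 27.3 CPM per kb in CAF-vec and 19.3, 18.6 and 17.7 CPM per kb in CAF-200. The level of *Efnb2* relative to *Ephb4* within a sample was 0.214 and 0.371 in CAF-vec and 0.969, 1.02 and 1.13 in CAF-200. The level of *Efna1* relative to its receptor *Epha2* was 0.399 and 0.351 in CAF-vec and 0.184, 0.179 and 0.121 in CAF-200. In the first of these ratios every CAF-200 sample was above CAF-vec, and in the second every one was below it. With exon unions as the lengths, B ephrins were 28.7% and 32.4% of the ephrins in CAF-vec and 53.1% to 53.5% in CAF-200.

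Of the 12 other family genes, 7 were tested, and 1 fell, 1 rose and 5 did not pass, a share close to the 18.6% and 11.9% of all genes. *Ephb6* (ENSMUSG00000029869, chromosome 6, 41605482 to 41620509, plus strand), a receptor without kinase activity, was 25.9 and 19.05 CPM in CAF-vec and 9.10, 9.16 and 7.60 CPM in CAF-200. It fell more than any of the listed receptors, with a log2 fold-change of -1.32 (SE 0.164, limma, adjusted *p* = 0.00552), and passed with each sample left out, at -1.54 to -1.10. *Epha1* (ENSMUSG00000029859, chromosome 6, 42358487 to 42373268, minus strand), an EphA receptor of epithelia, was 17.8 and 17.2 CPM in CAF-vec and 28.85, 29.9 and 24.5 CPM in CAF-200. It rose by a log2 fold-change of 0.64 (SE 0.114, limma, adjusted *p* = 0.0125), and shares 236 exon bases with *Zyx* on the other strand. The call was lost without CAF-200 1 (log2 fold-change 0.61, limma, adjusted *p* = 0.0644) or CAF-200 2 (0.59, adjusted *p* = 0.0652). Neither *Ephb6* nor *Epha1* has a match to a miR-200 seed in its longest 3′-UTR. Over the whole family, every CAF-200 sample was below both CAF-vec samples for 4 of 4 tested EphB receptors and above both for 3 of 3 tested B ephrins, where 37.3% and 24.3% of all genes were. Of these, 3 EphB receptors fell and 2 B ephrins rose, where 18.6% and 11.9% of all genes did, and classes of this size allow no reading beyond their genes' own values.

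The other 5 tested family genes had smaller log2 fold-changes. *Efnb3*, the remaining B ephrin, had one of 0.50 (limma, adjusted *p* = 0.110) at 0.607 and 1.11 CPM in CAF-vec, against 1.30 to 1.52 CPM in CAF-200. This log2 fold-change was 0.77 without CAF-vec 2 and 0.23 without CAF-vec 1. *Epha7* had one of 0.40 (adjusted *p* = 0.182) and *Efna2* one of -0.32 (adjusted *p* = 0.123). *Efna3* and *Efna4*, A ephrins that lie beside *Efna1* on chromosome 3, had log2 fold-changes of 0.092 (95% confidence interval -0.35 to 0.54) and -0.022 (-0.40 to 0.36), the latter changing sign after centring, and share 344 and 168 exon bases with antisense genes. *Efna1* and *Efna3* are separated by 32756 bases with 1 annotated gene between them, and *Efna3* and *Efna4* by 10424 bases with none. *Efna4* was the largest part of the A ephrins per length in both groups, at 37.2% to 55.3% in the 5 samples. *Epha5*, *Epha8* and *Epha10* were listed at 0 in all samples, and *Epha6* and *Ephb1* did not exceed 0.0281 CPM.

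**Figure D4:**
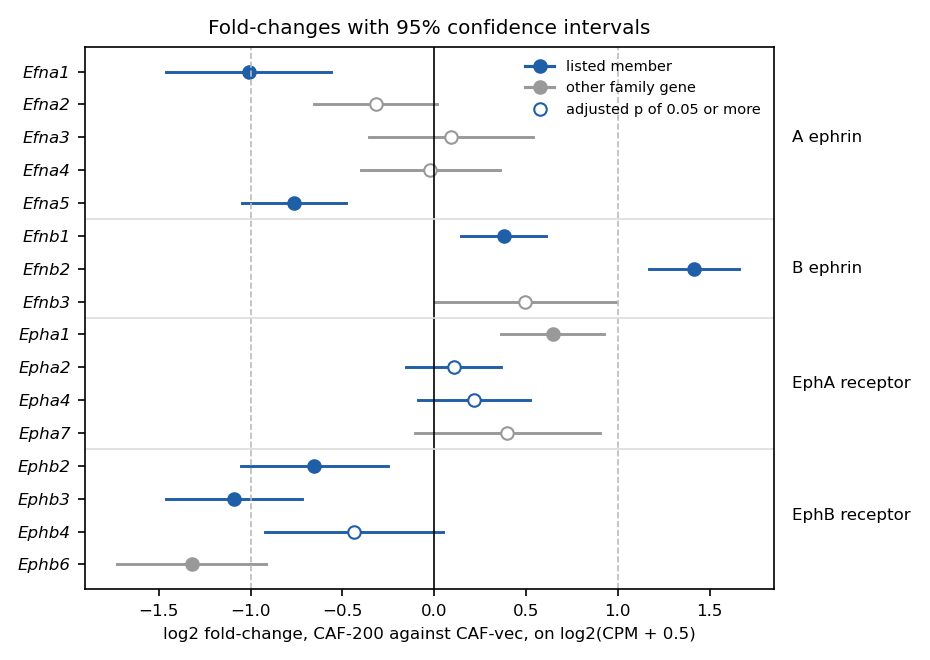
log2 fold-change of CAF-200 against CAF-vec (horizontal) with its 95% confidence interval (bars) for the 16 tested ephrin and Eph genes by class, with filled points where the adjusted *p* was under 0.05 and dashed lines at log2 fold-changes of -1 and 1. The B ephrins lie to the right of 0 and the EphB receptors to the left, with intervals that reach 0 for *Ephb4*.

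Genes that act with ephrins and Ephs were examined as a list of 54, of which 49 were tested. In CAF-200, 10 fell and 2 rose and 37 did not pass, beside 18.6% and 11.9% of all genes. The median log2 fold-change was -0.052 over the list and -0.094 over all genes tested. Those with the smallest adjusted *p* values were in several roles. *Mmp14*, a membrane protease known to cleave EphA2, was 416.8 and 453.0 CPM in CAF-vec and 226.9, 222.1 and 223.9 CPM in CAF-200 (log2 fold-change -0.95, limma, adjusted *p* = 0.00318). *Ngef*, which encodes the exchange factor ephexin-1 that binds EphA4, was 68.0 and 55.0 CPM against 28.0, 21.95 and 27.9 CPM (-1.23, limma, adjusted *p* = 0.00566). *Tiam1*, a Rac exchange factor engaged by Ephs and B ephrins, moved the other way, from 3.51 and 4.65 CPM to 9.08, 9.54 and 10.5 CPM (1.17, limma, adjusted *p* = 0.00562). *Mmp14*, *Ngef* and *Tiam1* passed with each sample left out.

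Of the reverse-signalling partners, which bind the tails of B ephrins, 3 of the 4 tested fell, beside 18.6% of all genes, and each of the 3 calls was lost without CAF-200 2 or CAF-200 3. *Pick1*, a PDZ protein, had a log2 fold-change of -0.61 (limma, adjusted *p* = 0.00754), *Dvl2* one of -0.53 (adjusted *p* = 0.0112) and *Sdcbp*, which encodes syntenin, one of -0.37 (adjusted *p* = 0.0305). *Fyn*, a Src family kinase downstream of both Ephs and ephrins, fell from 54.6 and 51.2 CPM to 36.5, 33.7 and 33.0 CPM (-0.61, limma, adjusted *p* = 0.00801). The call of *Fyn* was also lost without CAF-200 2 or CAF-200 3, and those of *Dvl2* and *Sdcbp* without any one of the CAF-200 samples. Of the 7 tested GTPases and effectors that carry Eph signals to the cytoskeleton, such as *Rac1* and *Rock1*, 0 passed (limma), and *Rac1* (log2 fold-change -0.33) and *Pak2* (0.24) had an unadjusted *p* under 0.05. The count over the list moved with the samples used. It was 21 lower and 13 higher without CAF-vec 2, and between 2 and 4 lower and 1 higher without any one of the CAF-200 samples.

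Ephs and ephrins are also made by endothelial, epithelial and mural cells, so markers of these were measured in the same samples. In bulk RNA, fewer cells of a type and less RNA per cell cannot be told apart. All 9 fibroblast markers were detected, with sums of 8309 to 15330 CPM. In CAF-200, 4 of them rose (*Dcn*, *Lum*, *Thy1* and *Fn1*), beside 11.9% of all genes tested. The other 5 did not pass and had log2 fold-changes below 0, at -0.91 for *Col1a1*, -0.75 for *Col1a2*, -0.39 for *Vim*, -0.25 for *Pdgfrb* and -0.20 for *Pdgfra*, and the median of the list was -0.20. The collagens rested on CAF-vec 1, where *Col1a1* was 4613 CPM, while CAF-vec 2 had 2003 CPM and the CAF-200 samples 1543 to 1719 CPM. Without CAF-vec 1, *Col1a1* was at -0.31, *Col1a2* at -0.24, *Vim* at -0.053 and *Pdgfra* at -0.025, while *Pdgfrb* was at -0.26. The highest sum was also that of CAF-vec 1, followed by 8977 CPM, and the call of *Fn1* was lost without any one of the CAF-200 samples. None of the 8 endothelial or 8 epithelial markers reached 1 CPM in any sample. The endothelial sum was 0.857 and 0.0878 CPM in CAF-vec and 0.494, 0.829 and 0.936 CPM in CAF-200, with *Tie1*, *Emcn* and *Cldn5* listed at 0, whereas *Efnb2* and *Ephb4* ranged from 17.7 to 75.0 CPM. *Sox17*, a gene of arterial endothelium, was 0 and 0.0295 CPM in CAF-vec and 0.352, 0.463 and 0.631 CPM in CAF-200, above both CAF-vec samples as *Efnb2* was, and *Cdh5* was also above both, at 0.0608 to 0.122 CPM. *Pecam1* (mean 0.163 CPM in CAF-vec and 0.118 CPM in CAF-200) and *Tek* (0.261 and 0.0511 CPM) overlapped and had lower means in CAF-200. *Erg* did not exceed 0.0102 CPM. None of the 8 endothelial markers was high enough to be tested, and the part of *Sox17* and *Cdh5* in the rise of *Efnb2* was not tested. The epithelial sum was 0.0335 to 0.452 CPM over the 5 samples. Of the 7 leukocyte markers, 3 were tested and *Lyz2* rose (log2 fold-change 1.91, limma, adjusted *p* = 0.00395), beside 11.9% of all genes tested. *Csf1r* (-0.46, adjusted *p* = 0.250) and *Cd68* (-0.14, adjusted *p* = 0.758) did not pass, and *Adgre1* and *Cd3e* were listed at 0. *Csf1r* was 0.020 without CAF-vec 1 and -0.94 without CAF-vec 2, and *Cd68* was -0.64 and 0.36, so the sign of each depended on which CAF-vec sample was used. Among 8 pericyte and smooth muscle markers, 4 were tested, and *Acta2* and *Cnn1*, which activated fibroblasts also express, rose (log2 fold-changes 2.63 and 2.79, limma, adjusted *p* = 0.00123 and 0.00093), beside 11.9% of all genes tested. *Cspg4* and *Notch3*, with log2 fold-changes of -0.41 and -0.31, did not pass. They were -0.16 and -0.06 without CAF-vec 1, and -0.66 and -0.56 without CAF-vec 2. The sum of that list was 107.7 and 138.0 CPM in CAF-vec and 700.3, 689.4 and 741.5 CPM in CAF-200, with *Kcnj8* and *Abcc9* listed at 0 and *Rgs5* and *Myh11* under 0.1 CPM. Nearly all of that sum was *Acta2*, at 92.8 and 125.7 CPM in CAF-vec and 660.7, 653.5 and 706.5 CPM in CAF-200. The study reports lower α-SMA, the protein that *Acta2* encodes, by immunostaining of CAF-200, which is the opposite direction. That measure is of protein and this one of RNA, and the reason for the difference was not tested. *Acta2* and *Cnn1* rose together with *Efnb2*, and their part in the changes of the ephrins and Ephs was not tested.

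**Figure D5:**
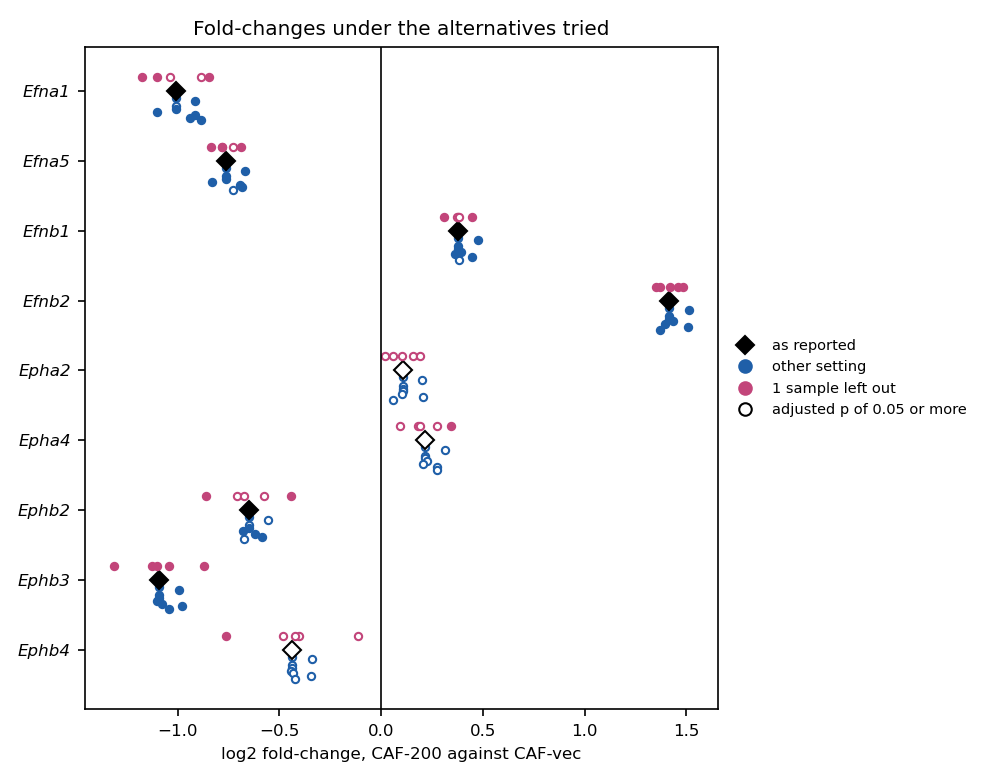
log2 fold-change of CAF-200 against CAF-vec (horizontal) of each tested member as reported (diamonds), under the other settings tried (blue) and with 1 sample left out (pink), with open symbols where the adjusted *p* was 0.05 or more. No member changed direction in any of the 13 alternatives, and *Efnb2* and *Ephb3* have filled symbols throughout.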

How the data were processed

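RNA of 2 CAF-vec and 3 CAF-200 samples was sequenced after stranded mRNA library preparation. The study's methods describe triplicates, and of CAF-vec only the 2 samples were analysed here. CPM values were deposited by the authors in 1 table of 21835 genes, TMM-normalized by its name. Whether the values were adjusted further is not given in the sources used here. The submitters' processing notes name FastQC, cutadapt, Trimmomatic, STAR, RSEM and edgeR, and the builds GRCm38 and mm10. Each column summed to between 999956 and 1000111 CPM, all 5 columns were used and 0 were left out. From 19.1% to 56.9% of the values between 0.05 and 1 CPM in a sample lay within 0.05 of a whole multiple of the best step, counted in steps, so reads could not be recovered, no count test was run and the depth is unknown.

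Groups were compared with limma 3.58.1 (R 4.3.3, variance trend on) on log2(CPM + 0.5). Genes entered when 2 or more samples reached 0.5 CPM, and *p* values were adjusted by Benjamini-Hochberg. The fit was also run on simulated data, whose noise had the same spread in both groups, unlike these samples. No outcome of that run is used here. Gene names, matched for 21795 genes, and lengths, positions and 3′-UTRs came from GENCODE M21 (GRCm38), and the miRNA sequences from RefSeq (3 of 3 matched). All members and tested family genes were named, and of the partners the 5 with the smallest adjusted *p* values, since under 5 passed the study's thresholds. *Dvl2* and *Sdcbp* were named after their values were seen, to complete the 3 reverse-signalling partners that fell. *Rac1*, *Rock1* and *Pak2* were also named outside the rule for partners, with values of *Rac1* and *Pak2* given for an unadjusted *p* under 0.05 (limma). Members and lists were chosen with earlier results of these data known. Alternatives were the pseudocount, the filter, 2 rescalings, the variance trend, the replicate block, each sample left out, the length and the seed definition.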

Additional observations from a re-analysis of the deposited data

How the results depend on the processing

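Every one of the 9 tested members kept its direction under the 13 alternatives run. EdgeR and DESeq2 were not run, since reads could not be recovered. Unless a value or the construction shows it, the cause of a change was not tested. The samples share replicate numbers only, and how far they stood from their group's mean correlated over genes at 0.25 for number 1 and 0.13 for number 2, while CAF-vec 2 and CAF-200 3, with different numbers, reached 0.12. With the replicate block, *Efna5* (adjusted *p* = 0.0542), *Ephb2* (0.0544) and *Efnb1* (0.170) lost their calls (limma), so 2 members were lower and 1 higher at an adjusted *p* under 0.05, 0 lower at the study's thresholds (4 at an unadjusted *p* under 0.05, limma), 3 partners lower and 1 higher, and 852 of all genes lower and 630 higher. No CAF-vec sample has number 3, so the block also takes CAF-200 3 out of the fold-changes. The members' fold-changes equalled those without CAF-200 3, where *Efna5*, *Ephb2* and *Efnb1* also lost their calls. The 4 members that fell became 2 without a filter (*Efna1* and *Ephb2* were lost), where 21835 genes enter the adjustment, and none then passed the study's thresholds in either direction (0 and 0, with 4 lower and 2 higher at an unadjusted *p* under 0.05, limma), while 1183 of all genes were lower, 874 higher and 1 partner higher. *Ephb3* missed the study's fold threshold after quantile normalization and after centring, which left 0 members lower there (4 at an unadjusted *p* under 0.05, limma). Under these the median of all genes moved from -0.094 to -0.016 and 0.0027, and the 2 partners that rose became 4 and 6.

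With each sample left out in turn, 1 to 5 members were lower and 1 to 3 higher, 0 to 2 lower and 0 to 1 higher at the study's thresholds, 1 to 1 other family genes lower and 0 to 2 higher, 2 to 21 partners lower and 1 to 13 higher, and 482 to 4835 of all genes lower and 434 to 3031 higher. The highest counts came without CAF-vec 2, where the remaining CAF-vec sample is assumed to vary like the CAF-200 samples. *Efna4* (-0.022) changed sign after centring (0.075), after quantile normalization (0.048) and without CAF-200 1 (0.0064), CAF-200 2 (0.046) or CAF-vec 1 (0.13), *Efna3* without CAF-vec 2 (-0.075) and *Zeb2* without CAF-vec 1 (0.083). Over all samples left out, *Efna4* ran from -0.17 to 0.13, *Efna3* from -0.075 to 0.26 and *Zeb2* from -0.54 to 0.083.

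With exon unions as lengths, mean levels in CAF-vec became 2.72 CPM per kb for *Efnb2*, 8.86 for *Epha2*, 1.28 for *Epha4* and 8.41 for *Ephb3*. By sample, *Ephb3* (9.71 and 7.12 CPM per kb) overlapped *Epha2* (9.38 and 8.33 CPM per kb). In CAF-200 the means became 3.76 for *Efnb1*, 7.38 for *Efnb2*, 9.53 for *Epha2*, 1.496 for *Epha4*, 0.601 for *Ephb2*, 3.87 for *Ephb3* and 9.49 for *Ephb4*. A seed match was found in 5 members also over any annotated 3′-UTR, and in 7 with the hexamer to bases 2 to 7, which 54.6% of the tested genes hold. The unknown depth leaves the precision of genes near or under 1 CPM, such as *Efna3*, *Efnb3* and *Epha7*, undetermined.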
